A study of Mus musculus with 4 samples.

Results

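The cells described here are 107 epithelial cells of the mouse embryonic mammary gland at E15.5, the basal-like cells of a single-cell RNA-seq library of wild-type female C57B6 embryos (C57 B6/N in the study's methods). They were chosen by a gate on unique molecular identifiers (UMIs, each of which stands for 1 captured transcript). A mammary cell needed at least 5000 UMIs in all with at most 6% of them from mitochondrial genes, at least 10 UMIs of the epithelial genes Epcam, Krt8, Krt18, Krt5, Krt14 and Krt15, more than 2 times as many of these as of Col1a1, Col1a2 and Col3a1, at least 5 UMIs of Krt8 and Krt18, and fewer than 10 UMIs of the mitotic genes Top2a, Mki67, Cenpf, Hmmr, Nusap1 and Birc5. A basal-like cell then needed at least 8 UMIs of Cxcl14, Pthlh and Sostdc1 together and fewer than 3 of Ly6d. The 107 cells were 29.4% (exact 95% binomial interval 24.8 to 34.4%) of the 364 non-cycling mammary cells of the library, which held 816 cells after filtering, and they were 107 of 1630 filtered cells in the series. The other 257 non-cycling mammary cells comprised 25 Ly6d-high cells, 231 remaining Ly6d-low cells and 1 cell high for both.

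Besides the E15.5 library the series holds 1 from each of P0 (birth), E14.5 and E13.5. At each stage, mammary tissue of wild-type females of the same strain, with its mesenchyme, was dissociated with collagenase A and hyaluronidase, in other proportions at P0 than before, and sorted after exclusion of CD45+, CD31+ and Ter119+ cells. Tissue of several animals went into each library, so a library cannot be divided by animal, and stage and library cannot be told apart. All values below therefore describe these libraries: no test was made, cells were not used as replicates, and the intervals are exact 95% intervals that cover counting error only.

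The mammary epithelium starts in the embryo as a bud of ectoderm that sinks into the mesenchyme and then sprouts. In the adult it forms a bilayer, with inner luminal cells and outer basal cells that rest on the basement membrane and contract during lactation. Both lineages descend from embryonic progenitors that express keratins of both layers. Of the gate genes, Cxcl14 encodes a chemokine, Pthlh encodes parathyroid hormone-related protein, through which the mammary bud instructs its mesenchyme, and Sostdc1 encodes a secreted antagonist of Wnt and BMP signalling. Ly6d encodes a surface protein of epithelial cells that serves here as the marker of the opposite state.

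Depth was similar on both sides of the gate. The 107 cells held 2764120 UMIs, with a median of 23404 per cell (10906 to 72392), and the other 257 held 6258062, with a median of 23773 (6036 to 58588). The median mitochondrial share was 5.13% in the former and 4.96% in the latter. When each cell was thinned at random to 5000 UMIs, the median number of genes per cell was 2023 against 1963. Levels are given below as counts per 1000000 summed UMIs of a class (CPM). No barcode of these cells occurred in another library, and the doublet caller Scrublet marked none of the 445 mammary cells.

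Cxcl14 decided most of the gating. It gave 82.5% of the gate UMIs of the 107 cells, against 11.96% for Pthlh and 5.57% for Sostdc1, and 86 of the 107 cells would have passed on Cxcl14 alone. Their gate sum ranged from 8 to 82 UMIs with a median of 15. Cxcl14 was found in 106 of the cells, Pthlh in 74 and Sostdc1 in 37, and only 25 cells held UMIs of all 3 genes. The gate cut through a continuous range. There were 23 cells with a sum of 8 or 9 just inside it and 26 Ly6d-low cells with a sum of 6 or 7 just outside, whereas 69 Ly6d-low cells had none. Ly6d was at 0 in 97 of the 107 cells and at 1 or 2 UMIs in 10.

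**Figure D1:**
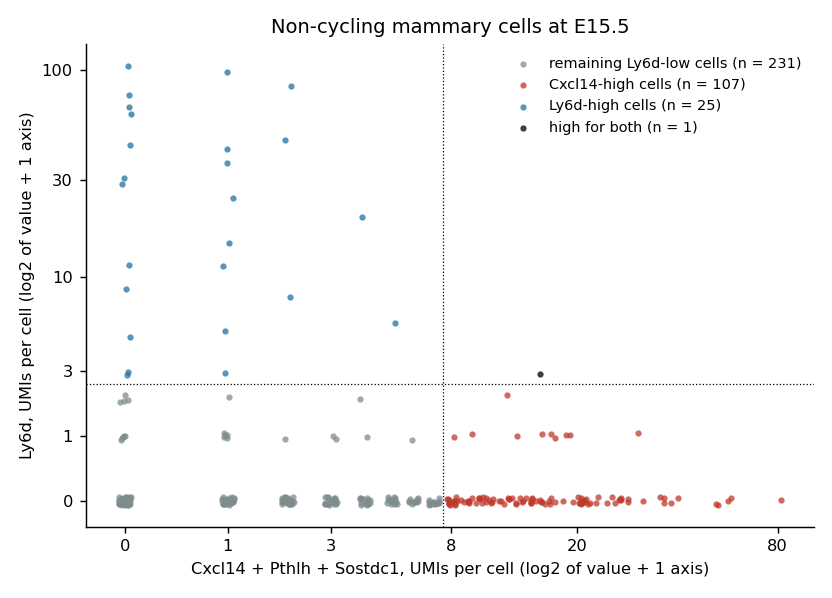
Each point is 1 of the 364 non-cycling mammary cells at E15.5, with UMIs of Cxcl14, Pthlh and Sostdc1 on the horizontal axis and UMIs of Ly6d on the vertical axis, both as log2 of the value plus 1, with a small random shift. The dotted lines mark the 2 gates, and 1 cell lies above both.

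The label was compared with markers that the gate did not use. Lmo1, Ndnf and Epha7, given as further markers of these cells, were chosen with results of this same library known and are not independent evidence for the label. All had higher CPM here than in the other non-cycling mammary cells, by 2.25-fold, 1.72-fold and 2.58-fold, respectively. Genes of the adult basal layer were split. Of 11 measured genes of adult basal identity, 8 were above a ratio of 1 but none reached 2-fold, and Krt17, a keratin of adult basal cells, was lower. Trp63, a master regulator of stratified and basal epithelium, was at 77.4 CPM against 71.7. Of 13 genes of the adult contractile apparatus, 5 reached a mean of 25 CPM over the 2 classes and were measured. Acta2 and Myl9 were at least 2-fold lower, and the other measured ones lay within 2-fold. Both Acta2 and Myl9 were below 25 CPM in these cells and passed that filter only through the other class. Keratins of both layers were present, as the rule requires only in part. Krt14 was at 2444 CPM against 2748 in the other cells, Krt5 at 681 against 862, Krt8 at 706 against 1201 and Krt18 at 553 against 775. In the remaining Ly6d-low cells Krt5 was at 713 CPM, and in the Ly6d-high cells at 1915. Since the adult basal genes did not point in 1 direction, the cells are called Cxcl14-high cells from here on, a name that sets them apart from other non-cycling mammary cells only. Cxcl14 was at 584 CPM in them and 64.4 in the other mammary cells, but at 862 CPM in 31 other epithelial cells that passed the same gate, and 59 of the 279 mesenchymal cells (21.1%) reached the gate as well.

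Some genes differed by at least 2-fold between the Cxcl14-high and the other non-cycling mammary cells. Higher were 4 of 14 mammary bud regulators, 2 of 18 genes of the basement membrane zone, 2 of 3 measured mesenchymal genes and single ligands and receptors. Lower were 8 of 19 genes of suprabasal keratinocytes. Of 4701 genes outside the gates with a mean of at least 25 CPM, 27 (0.574%) were at least 2-fold higher and 53 (1.13%) at least 2-fold lower. With every cell thinned to 5000 UMIs the split was 74 against 84. Without mitochondrial, ribosomal protein and heat shock UMIs more genes passed in both directions, with the larger gain on the higher side. Those counts are given under the dependence on processing. The median log2 ratio over all 4701 genes was 0.03. Among the 27 higher genes, Loxl2, BC100530, Ccdc91, Has2, Tbx3, Pik3r1, Smad7 and Col5a1 were below 25 CPM in the other cells. They passed the filter on mean level only through the Cxcl14-high cells. The gate was drawn on these same cells, so genes whose levels follow Cxcl14 or oppose Ly6d from cell to cell were bound to appear, and these counts are a description.

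**Figure D2:**
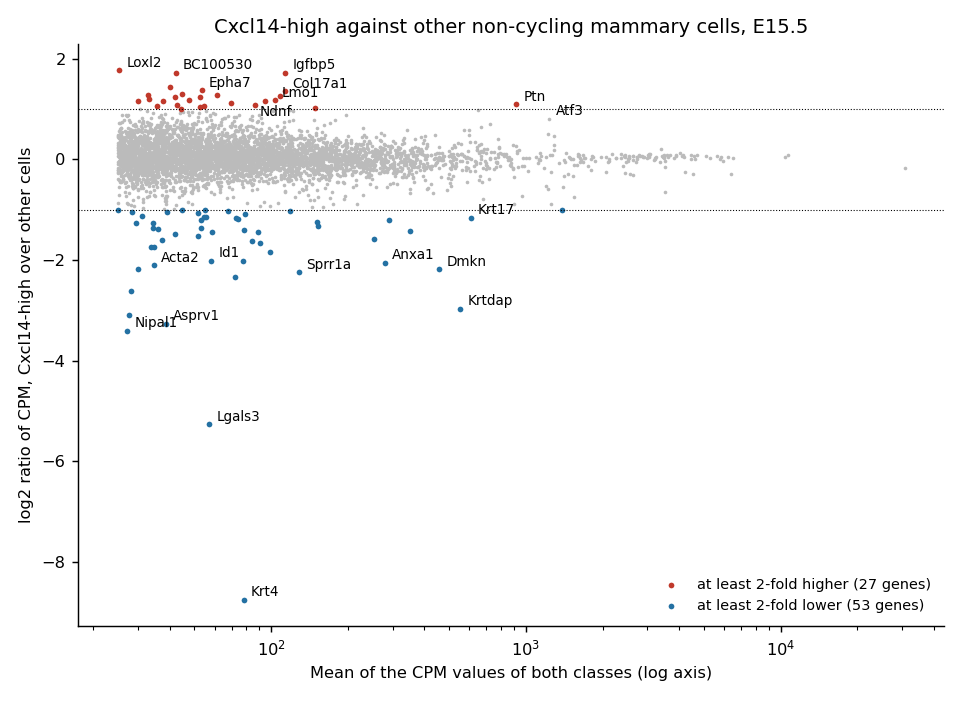
Each point is 1 of 4701 genes, with the mean of the CPM values of the Cxcl14-high and the other non-cycling mammary cells on a log axis and the log2 ratio of the former over the latter. Red and blue points are the 27 genes at least 2-fold higher and the 53 at least 2-fold lower. The lower genes reach larger ratios than the higher ones.

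Of 27 regulators of the mammary bud, transcription factors and secreted factors, 14 were measured. All 14 had a ratio above 1, and 4 of them reached 2-fold, beside 0.574% of all 4701 genes. Their median log2 ratio was 0.59, beside 0.03 over all 4701 genes. Tbx3, a T-box factor without which mammary placodes fail to form properly, was at 59.0 CPM (50.3 to 68.7) in the Cxcl14-high cells and at 24.9 (21.2 to 29.2) in the others. It was below 25 CPM in the others and passed the filter on mean level only through the Cxcl14-high cells. Bcl11b, a zinc-finger factor, was at 74.2 CPM against 31.3. Lmo1, a LIM-only cofactor, was at 143 CPM (129 to 158) against 63.6 (57.5 to 70.2), and at least 1 UMI of it was found in 90.7% of the Cxcl14-high cells, in 67.7% of the other mammary cells and in 12.9% of the 279 mesenchymal cells of the library, whose median depth was 24324 UMIs. Bmp2, a BMP ligand, was at 65.8 CPM against 29.1. Below 2-fold followed Ndnf, a secreted factor with a fibronectin type III domain, at 107 CPM against 62.0, and the transcription factor gene Tfap2b at 84.7 against 53.7. Gata3, a factor that in the adult belongs to the luminal lineage, was at 191 CPM against 169, and Lef1, a nuclear effector of Wnt signalling, at 210 against 195. Tbx3, Bcl11b and Bmp2 fell below 2-fold when at least 20 UMIs of Krt8 and Krt18 were required of every cell, with log2 ratios of 0.69, 0.82 and 0.94, and Lmo1 did so when the gates were read on thinned cells, with 0.99.

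The start sites of a few of these genes are shown so that promoters of 2 higher and 2 lower genes may be compared. RefSeq promoter windows of GRCm38.p6 were held for 9 of the 15 highest and 12 of the 15 lowest genes, each running from 250 bases before the start to 50 after it. They were searched on both strands for CTTTGAA (LEF/TCF), TGANTCA (AP-1), where N is any base, and an NF-kB motif. LEF/TCF letters occurred in the windows of Bcl11b and Lmo1 among the 9 higher genes and in none of the 12 lower ones, beside 5.93% of all 27025 genes with a window. AP-1 letters occurred in Lmo1 among the higher genes and in Krtdap, Sprr1a, Dmkn and 3830417A13Rik among the lower ones, beside 8.97% of all genes. NF-kB letters occurred in Col17a1 alone, beside 1.89% of all genes. In the windows printed here, 5′ to 3′ on the strand of the gene, capitals mark these matches. Of the 2 windows of Lmo1, the one with a match is shown (chr7:109175158-109175457, minus strand), and in it the AP-1 and LEF/TCF letters overlap. The others are Bcl11b (chr12:108003365-108003664, minus strand), Krtdap (chr7:30787655-30787954, plus strand) and Sprr1a (chr3:92485832-92486131, minus strand).
Lmo1: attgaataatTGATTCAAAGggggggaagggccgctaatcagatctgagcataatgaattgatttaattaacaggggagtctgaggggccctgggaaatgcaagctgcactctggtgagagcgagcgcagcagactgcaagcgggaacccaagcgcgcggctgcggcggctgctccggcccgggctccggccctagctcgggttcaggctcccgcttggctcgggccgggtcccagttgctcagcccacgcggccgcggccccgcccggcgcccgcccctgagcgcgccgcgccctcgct
Bcl11b: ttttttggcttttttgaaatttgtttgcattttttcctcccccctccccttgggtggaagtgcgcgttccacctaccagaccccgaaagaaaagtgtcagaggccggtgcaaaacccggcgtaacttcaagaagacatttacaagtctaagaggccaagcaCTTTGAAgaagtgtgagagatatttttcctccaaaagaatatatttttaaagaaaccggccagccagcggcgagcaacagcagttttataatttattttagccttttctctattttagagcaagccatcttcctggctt
Krtdap: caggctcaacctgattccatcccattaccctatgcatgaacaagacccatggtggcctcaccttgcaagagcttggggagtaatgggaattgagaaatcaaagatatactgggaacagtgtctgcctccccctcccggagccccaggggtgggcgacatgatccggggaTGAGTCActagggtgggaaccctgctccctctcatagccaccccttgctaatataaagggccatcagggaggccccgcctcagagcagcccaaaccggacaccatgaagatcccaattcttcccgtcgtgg
Sprr1a: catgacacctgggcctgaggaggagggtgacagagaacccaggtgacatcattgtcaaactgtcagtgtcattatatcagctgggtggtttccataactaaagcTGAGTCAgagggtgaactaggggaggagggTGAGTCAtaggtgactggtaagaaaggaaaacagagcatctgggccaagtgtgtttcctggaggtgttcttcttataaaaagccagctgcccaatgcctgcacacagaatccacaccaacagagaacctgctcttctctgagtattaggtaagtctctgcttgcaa

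Most measured genes of proteins that anchor epithelium to the basement membrane also had a ratio above 1. Of 18 measured hemidesmosome, integrin and laminin genes, 16 did so and 2 reached 2-fold, beside 0.574% of all 4701 genes. The median log2 ratio was 0.51, beside 0.03 over all 4701 genes. Col17a1, the transmembrane collagen of hemidesmosomes, was at 163 CPM (148 to 179) against 63.8 (57.7 to 70.3). Col7a1, which forms the anchoring fibrils beneath the basement membrane, was at 63.3 CPM against 25.9. Neither reached 2-fold when the gates were read on thinned cells, with log2 ratios of 0.67 and 0.71. Col7a1 was also within 2-fold with cells thinned after gating. Below 2-fold followed the laminin chain genes Lamb1, at 44.9 CPM against 23.6, and Lama5, the collagen IV genes Col4a1, at 109 CPM against 60.2, and Col4a2, and Itgb1, the integrin beta 1 chain, at 688 CPM against 459. Plec, which encodes the cytoskeletal linker plectin, lay below 1, at 162 CPM against 222. Per cell, the summed level of the list had a median of 2397 CPM in the Cxcl14-high cells, 2002 CPM in the remaining Ly6d-low cells and 1239 CPM in the Ly6d-high cells. The ranges overlapped, from 458 to 5445 CPM in the first class and from 440 to 1962 CPM in the last. The median was higher, at 2744 CPM, in the 31 gated cells with few Krt8 and Krt18 UMIs described further on.

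Among the secreted factors and receptors, Igfbp5, an IGF-binding protein, had the second highest ratio of all. It was at 174 CPM (159 to 191) against 52.9 (47.3 to 58.9), a 3.30-fold difference (2.86 to 3.80). Epha7, a receptor for ephrin-A ligands, was at 77.1 CPM (67.1 to 88.1) against 29.9 (25.8 to 34.5), and it was the only one of 7 measured Eph and ephrin genes past 2-fold. Ptn, which encodes the heparin-binding growth factor pleiotrophin, was at 1249 CPM against 588 and was the most abundant of the 27 higher genes. Has2, a hyaluronan synthase, was at 46.7 CPM against 19.2, and Vcan, the hyaluronan-binding proteoglycan versican, at 199 against 98.1. Il24, a cytokine of the interleukin-10 family, was at 153 CPM against 64.4 but was found in only 44 of the 107 cells, and 42 of its 423 UMIs came from 1 of them. Smad7, an inhibitor that TGF-beta and BMP signals induce, was at 52.1 CPM against 23.5. With the gates read on thinned cells, the log2 ratio of Il24 was 0.993, and that of Has2 was 0.93 with a gate sum of at least 12 and 0.85 with cells thinned after gating. Pik3r1, a regulatory subunit of PI3 kinase, was at 46.3 CPM against 20.1, and Irf2bpl, a zinc-finger protein, at 86.5 against 35.8. Pik3r1 had a log2 ratio of 0.94 with the gates read on thinned cells and 0.98 with cycling cells kept.

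Ccdc91, with 58.6 CPM against 21.6, is the neighbour of the gate gene Pthlh on chromosome 6. In GENCODE M21 on GRCm38, Pthlh spans chr6:147252101-147264183 on the minus strand and Ccdc91 spans chr6:147475828-147632612 on the plus strand, with 211644 bases between them. Its log2 ratio of 1.44 became 0.95 with the gates read on thinned cells and 0.74 with at least 20 UMIs of Krt8 and Krt18 per cell. Within the Cxcl14-high class, Ccdc91 was at 68.9 CPM in the 74 cells with a Pthlh UMI and at 34.8 CPM in the 33 without, a 1.98-fold difference (1.32 to 3.07). Has2, Tbx3 and Epha7, which lie on other chromosomes, differed by the Pthlh split by 2.35-fold, 1.99-fold and 1.92-fold. By the split on Sostdc1, Ccdc91 was at 107 CPM in the 37 cells with a UMI and 33.9 in the 70 without (3.15-fold, 2.27 to 4.40), an interval that overlaps that of the Pthlh split. The part of the shared region in these values was not tested.

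A few cells weighed on 2 of the highest ratios. Loxl2, a lysyl oxidase-like enzyme, had 90 of its 108 UMIs in 1 Cxcl14-high cell, and without the richest cell of each class its log2 ratio was 0.19 in place of 1.76. Loxl2 was also within 2-fold when cycling cells were kept. BC100530, a gene of the stefin A cluster on chromosome 16 whose near-identical members can share reads, had 87 of its 179 UMIs in 1 cell, and the others had 57 of 123 in 1 cell. Without both cells its log2 ratio was 1.68. It stood at 64.8 CPM here against 1894 CPM in the 31 gated cells with few Krt8 and Krt18 UMIs described further on, and its log2 ratio turned to -0.62 when the gate was read on thinned cells and to -0.03 when cycling cells were kept.

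Most measured genes of signalling pathways lay within 2-fold. Of 26 measured Wnt pathway genes, 23 had a ratio above 1 and none reached 2-fold in either direction. The median log2 ratio was 0.39, beside 0.03 over all 4701 genes. The ligands Wnt6, at 154 CPM against 102, Wnt10b, at 50.3 against 33.4, and Wnt3, at 73.1 against 51.8, were on the higher side. So were the receptor gene Lgr4, at 99.1 CPM against 62.96, and Rnf43 and Znrf3, which encode ligases that clear Frizzled receptors. Lgr5 and the ligand gene Wnt4 were lower, at 67.3 CPM against 80.4 and at 110 against 140. In the BMP and TGF-beta list, 15 of 18 genes were above 1, with a median log2 ratio of 0.30. Besides Bmp2 and Smad7, Id1, an inhibitor of helix-loop-helix factors that BMP signals induce, went the other way, with 23.2 CPM against 93.5. Id3 stood at 611 CPM against 497. Of 11 ectodysplasin and NF-kB genes none reached 2-fold, and Icam1 and Rel came closest, at 254 CPM against 138 and at 97.3 against 52.9. Among 7 Notch genes the median log2 ratio was -0.07, with Notch3 at 27.9 CPM against 49.2 and Notch1 at 415 against 358. The medians were 0.22 for 7 FGF genes and -0.23 for 8 EGF family genes, with none past 2-fold in either list.

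**Figure D3:**
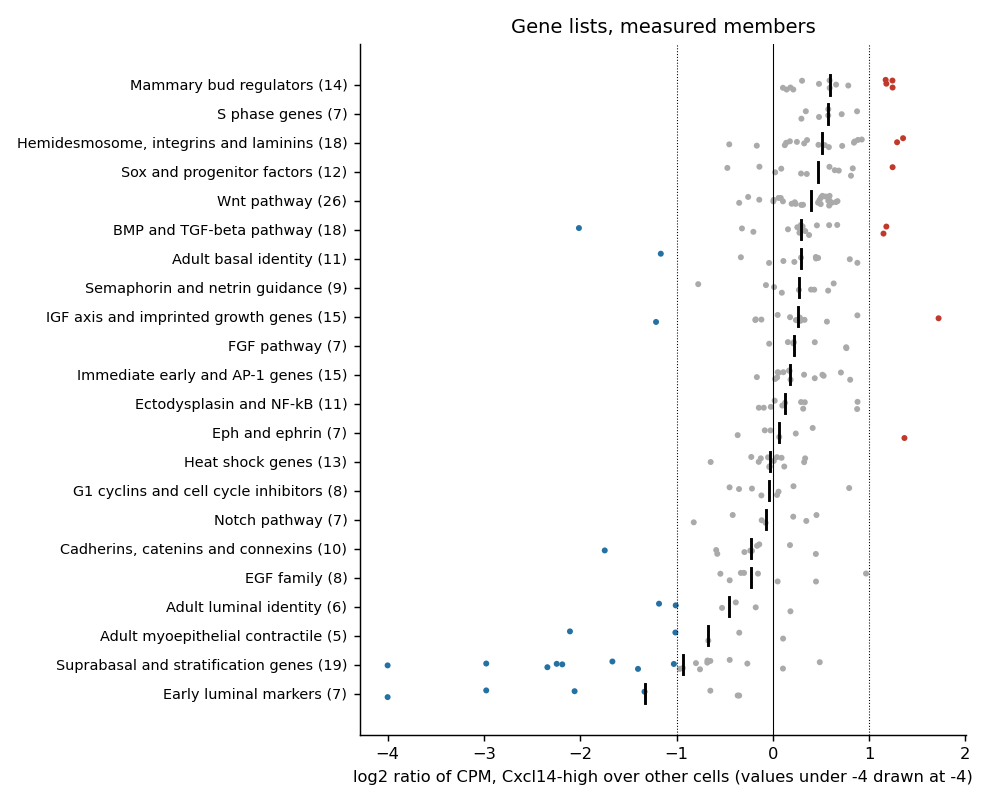
Each point is a measured gene of a list with at least 5 such genes, with the log2 ratio of its CPM in the Cxcl14-high over the other non-cycling mammary cells at E15.5, and black bars are list medians, with the number of measured members in brackets. Values under the axis limit are drawn at it. Mammary bud regulators lie highest, at 0.59, and early luminal markers lowest, at -1.33.

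Genes of suprabasal and differentiating keratinocytes were among those lower in the Cxcl14-high cells, and 8 of the 53 lower genes were on that list. Of 19 measured genes of suprabasal layers, 8 were at least 2-fold lower, beside 1.13% of all 4701 genes, and none was 2-fold higher. The median log2 ratio was -0.93, beside 0.03 over all genes. Genes below 25 CPM in the Cxcl14-high cells, such as S100a14, passed the filter on mean level only through the other cells. Krtdap, a secreted protein of differentiating keratinocytes that is also on the early luminal list, was at 125 CPM (112 to 139) against 982 (958 to 1007). Dmkn was at 164 CPM against 748, Sprr1a, a precursor of the cornified envelope, at 44.9 against 213, and the desmosomal cadherin gene Dsc3 at 43.4 against 138. S100a14, a calcium-binding protein, was 5.07-fold lower (3.94 to 6.62). Outside that list, Asprv1, an aspartic protease of the granular layer, was 9.65-fold lower (6.17 to 16.0), Metrnl 8.53-fold (5.17 to 15.1) and Nipal1, a magnesium transporter, 10.6-fold (6.11 to 20.1). Krt4, a keratin of suprabasal cells, had 1 UMI here against 976 elsewhere, but those 976 came from 2 cells, of which 1 held 697. Camk1d, Hebp2 and 3830417A13Rik complete the 15 lowest genes, with ratios between 0.164 and 0.248. Klf4 and Klf5, which are also active in differentiating keratinocytes, were above 1, at 151 CPM against 108 and at 833 against 774.

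Early luminal markers lay on the same side. All 7 measured genes had a ratio below 1, and 4 were at least 2-fold lower, beside 1.13% of all 4701 genes. The median log2 ratio was -1.33, beside 0.03 over all genes. Lgals3 passed the level filter only through the other cells, and the gate itself asks for low Ly6d, so these counts are a description. The paper chose Anxa1, Plet1, Lgals3 and Krtdap as luminal-side genes with this same library, so the list is not independent evidence. Lgals3, which encodes galectin-3, had 8 UMIs in 7 of the 107 cells, at 2.89 CPM (1.25 to 5.70), against 699 UMIs in 69 of the other 257, at 112 CPM (104 to 120). Lgals3 UMIs were found in 6.54% of the Cxcl14-high cells and 2.87% of the mesenchymal cells, at similar median depths. Anxa1, a lipid-binding annexin, was at 109 CPM against 452, and Plet1, a surface protein of progenitor and duct cells, at 87.2 against 220. Adult luminal genes moved less, with a median log2 ratio of -0.46 over 6 measured genes. Krt19 and the claudin gene Cldn3 reached 2-fold, at 36.5 CPM against 73.5 and at 45.2 against 103, and Cldn4 was at 980 against 1413.

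Acta2, smooth muscle actin, ranked among the 15 lowest genes with 13.02 CPM (9.12 to 18.03) against 56.1 (50.4 to 62.3). It was found in 18 of the 107 cells and 65 of the 257 others, and in 53.8% of mesenchymal cells. A single other mammary cell held 63 of the 351 UMIs. Myl9, another contractile gene, was at 16.6 CPM against 33.6, Tagln at 271 against 430 and Cald1 at 318 against 405. Acta2 was within 2-fold when the gates were read on cells thinned to 5000 UMIs, with a log2 ratio of -0.43.

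Stress and cycle genes were examined next. The 13 heat shock genes, which respond to dissociation, had a median log2 ratio of -0.03, and their summed level was 23740 CPM against 25783. Of 15 immediate early genes 14 were above 1, with a median log2 ratio of 0.17, beside 0.03 over all 4701 genes. Atf3 was at 1563 CPM against 895. All 7 measured S phase genes were above 1, although cells with 10 or more UMIs of the mitotic genes had been left out. None was past 2-fold, and their median log2 ratio was 0.58, beside 0.03 over all 4701 genes. Mcm4 was at 35.5 CPM against 19.3 and Pcna at 64.03 against 50.5. The share of cells that passed the basal-like gate was 49.4% (38.1 to 60.7%) of the 81 cycling mammary cells and 29.4% of the 364 non-cycling ones, but the cycling cells were deeper, with a median of 34422 UMIs against 23692. With gates scaled to 25000 UMIs per cell the shares were 37.0% (26.6 to 48.5%) and 31.0% (26.3 to 36.1%), which overlap. With the gates read on cells thinned to 5000 UMIs they were 41.98% (31.1 to 53.5%) and 29.9% (25.3 to 34.9%).

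Mesenchymal genes were measured beside these results. Of 23 genes on the mesenchymal list outside the gates, 3 passed the level filter and all had a ratio above 1. Their median log2 ratio was 1.02, beside 0.03 over all 4701 genes. The 2 at least 2-fold higher were Vcan and Col5a1. Col5a1 was below 25 CPM in the other mammary cells and passed that filter only through the Cxcl14-high cells. Fn1 was at 225 CPM against 132, Vcan at 199 against 98.1 and the fibrillar collagen gene Col5a1 at 48.1 against 23.0. In mesenchymal cells they were at 313, 986 and 336 CPM. The list summed to 568 CPM in the Cxcl14-high cells and 314 in the others, with Fn1 the most abundant. Ebf1 and Ebf2 were at 0 in the Cxcl14-high cells, beside 52.1 and 0.422 CPM in mesenchymal cells. Below the level filter, Dcn was at 15.2 CPM against 6.07, Thy1 at 16.6 against 5.91, Col5a2 at 15.2 against 7.83 and Fbn1 at 16.6 against 8.95, all higher in the Cxcl14-high cells. In mesenchymal cells Dcn, Thy1, Col5a2 and Fbn1 were at 801, 128, 470 and 122 CPM. Pdgfra was at 0.362 CPM against 0.799, Twist2 at 0.724 against 1.28 and Lum at 2.17 against 1.92, beside 212, 344 and 712 in mesenchymal cells. Col1a1, which the gate uses, was at 20.3 CPM against 24.8, beside 6895 in mesenchymal cells. Col3a1 was at 38.7 CPM against 39.6. Several genes named above were abundant in mesenchymal cells as well, with Igfbp5 at 337 CPM, Tbx3 at 121, Epha7 at 59.2 and Ndnf at 71.5, whereas Col17a1 was at 1.83 and Lmo1 at 5.63. The part of mesenchymal RNA in these results was not tested.

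Compared with the 25 Ly6d-high cells alone, most of these genes were again past 2-fold. Of 4650 genes, 443 (9.53%) were at least 2-fold higher and 248 (5.33%) at least 2-fold lower. Only 763522 UMIs lay behind the Ly6d-high values, so the counts include sampling spread. Of the 27 genes higher against all other cells, 24 (88.9%) were also among these 443, of which they are 5.42%, and the 2 comparisons share the Ly6d-high cells. The other 3, Has2, Irs4 and Loxl2, were below the level filter here. Epha7 was at 6.55 CPM and Ndnf at 9.17 in the Ly6d-high cells, against 77.1 and 107 in the Cxcl14-high cells, which are 11.8-fold (4.96 to 36.6) and 11.6-fold (5.58 to 29.2) differences. Wnt6 and Wnt3 were at 20.96 and 6.55 CPM in the Ly6d-high cells, Sox4, an SRY-box transcription factor, at 83.8 against 720, and the chemokine gene Cxcl10 at 40.6 against 702. On the other side, Krtdap stood at 3489 CPM, Anxa1 at 1019 and Lgals3 at 557 in the Ly6d-high cells. Genes near 0 in either class passed the level filter through the other class, so list counts are not given for this comparison.

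The 231 remaining Ly6d-low cells, the largest class, gave a smaller set. Of 4718 genes, 22 (0.466%) were at least 2-fold higher in the Cxcl14-high cells and 36 (0.763%) at least 2-fold lower. In the comparison with all other cells, in which these 231 cells take part, 19 of the 22 and 35 of the 36 were also found. These are 70.4% of its 27 higher genes, without Ptn, Vcan and Col5a1, and 66.0% of its 53 lower ones. Metrnl and Nipal1 were below the level filter here but still 7.56-fold and 8.10-fold lower. Lmo1 was at 63.2 CPM, Epha7 at 33.3, Col17a1 at 67.2 and Tbx3 at 25.3 in the remaining Ly6d-low cells. Among the Ly6d-low cells, genes differed in how their levels ran with the gate sum. Lmo1 stood at 46.1 CPM in the 69 cells with no gate UMI, at 61.2 in the 102 with 1 to 3, at 87.02 in the 60 with 4 to 7, at 111 in the 36 with 8 to 11, at 134 in the 34 with 12 to 19 and at 179 in the 37 with 20 or more. Median depth in these 6 bins lay between 21362 and 25568 UMIs. Tbx3 was between 35.7 and 38.3 CPM from 4 to 19 gate UMIs and at 98.7 from 20 onward. Ndnf was at 101 CPM with 4 to 7 gate UMIs, 85.3 with 8 to 11, 66.9 with 12 to 19 and 164 from 20 onward. Krtdap dropped from 684 CPM in cells with 1 to 3 gate UMIs to 126 in those with 4 to 7, and stayed between 114 and 132 above that. Lgals3 was at 115 CPM with no gate UMI, 31.0 with 1 to 3 and 4.99 with 4 to 7.

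**Figure D4:**
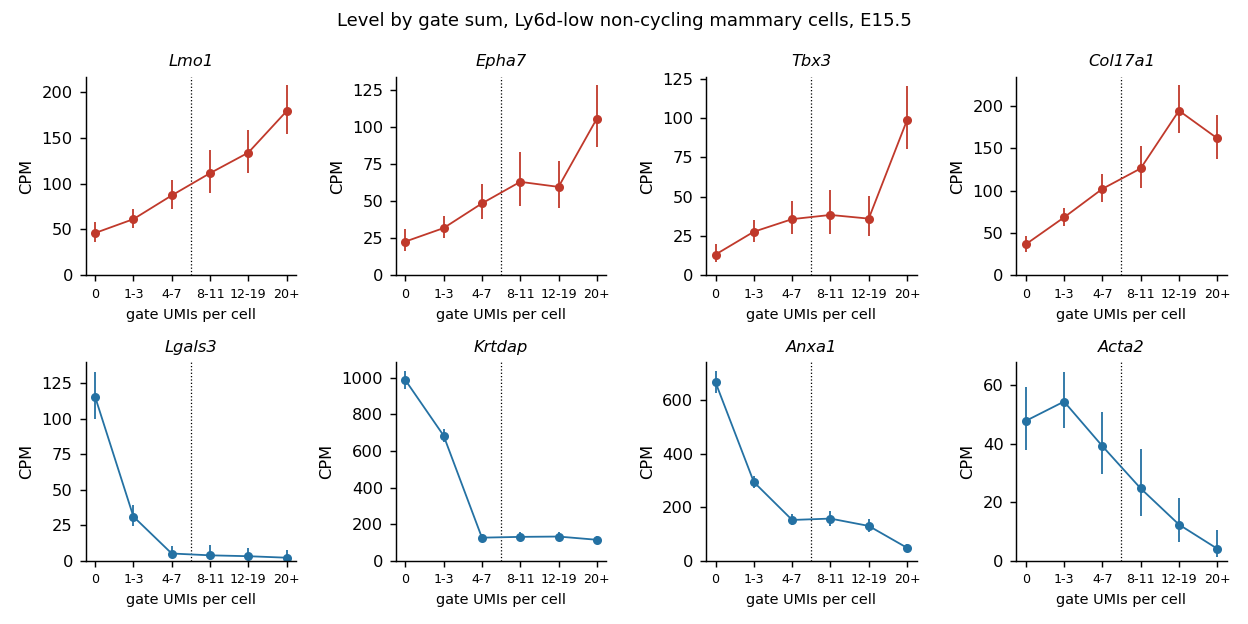
CPM of 8 genes in the 338 Ly6d-low non-cycling mammary cells at E15.5, by the number of UMIs of Cxcl14, Pthlh and Sostdc1 per cell, with exact 95% Poisson intervals and the gate as a dotted line. Lmo1 rises over all 6 bins, from 46.1 to 179 CPM, while Krtdap drops to 126 CPM before the gate is reached.

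The library also held 74 non-cycling epithelial cells with fewer than 5 UMIs of Krt8 and Krt18, and 31 of these passed the same gate on Cxcl14, Pthlh, Sostdc1 and Ly6d. In these 31 cells Sostdc1 was at 115 CPM, against 39.4 in the Cxcl14-high mammary cells, Krt5 was at 1046 CPM, Krt14 at 2154 and Krt15 at 945, with 325 for Krt15 in the Cxcl14-high mammary cells. Of 4568 genes, 294 (6.44%) were at least 2-fold higher in the Cxcl14-high mammary cells than in the 31 cells and 81 (1.77%) at least 2-fold lower, and the median log2 ratio was 0.31. Several genes that set the Cxcl14-high cells apart within the mammary epithelium were higher still in the 31 cells. Col17a1 was at 365 CPM there against 163, Lmo1 at 313 against 143, Il24 at 596 against 153 and Has2 at 351 against 46.7. Igfbp5 was at 295 CPM there against 174, within 2-fold. Relative to these cells, Tbx3 was 2.87-fold higher (1.69 to 5.25) in the Cxcl14-high mammary cells, Epha7 2.25-fold (1.49 to 3.56), Ccdc91 3.57-fold (1.99 to 7.06) and Ndnf 1.95-fold (1.40 to 2.79). Bmp2 and Bcl11b were within 2-fold, at 57.4 and 88.9 CPM in the 31 cells. In all, 5 of the 27 genes (18.5%) that were 2-fold higher against the other mammary cells were also among these 294. Loxl2, with 5 UMIs in the 31 cells, was below the level filter. Among genes named by their size in this comparison, after their values were seen, Etv1, an effector of FGF signalling, was at 49.9 CPM against 2.74, Lgr5 at 67.3 against 10.9 and the claudin gene Cldn7 at 558 against 82.1.

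**Figure D5:**
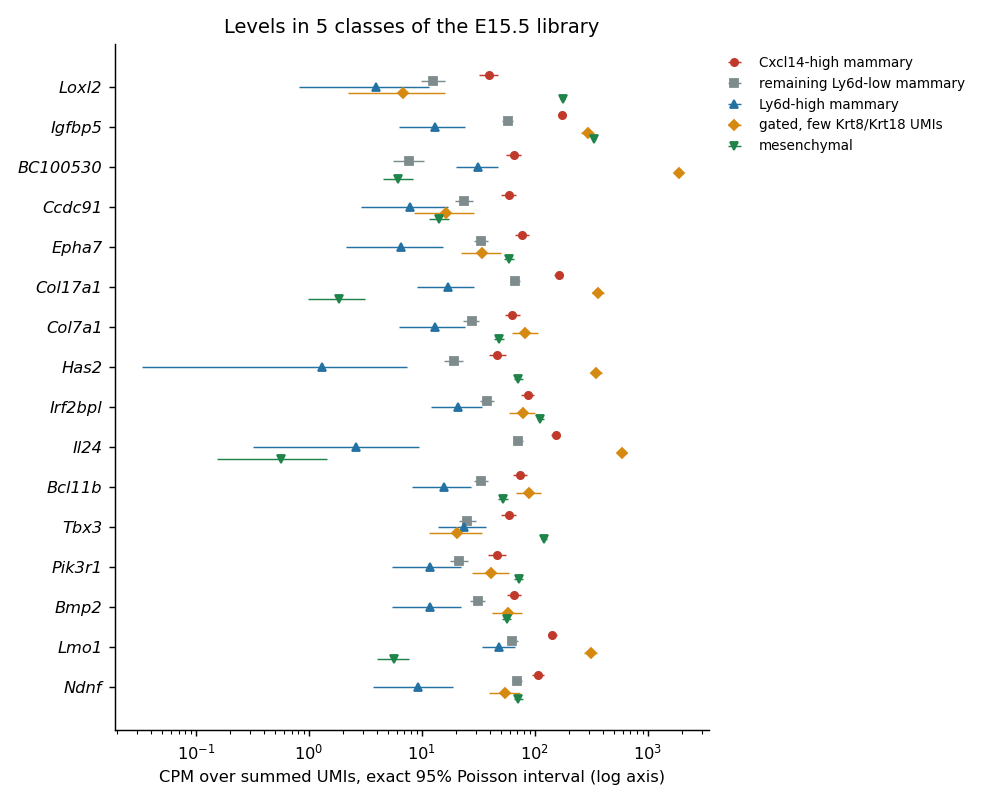
CPM with exact 95% Poisson intervals, on a log axis, of the 15 genes with the highest ratio and of Ndnf in 5 classes of cells of the E15.5 library. Col17a1, Lmo1, Il24 and Has2 are highest in the gated cells with few Krt8 and Krt18 UMIs, and Tbx3 is highest in mesenchymal cells, at 121 CPM.

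The Cxcl14-high cells also differed among themselves. The 37 cells with a Sostdc1 UMI and the 70 without had similar median depths, 23812 and 23070 UMIs. Ptn was at 1779 CPM in the former and 978 in the latter, a 1.82-fold difference (1.70 to 1.95), Igfbp5 at 272 against 125, and Krt15 at 476 against 248. Sfn, a keratinocyte gene, was lower in the cells with Sostdc1, at 1897 CPM against 2396. The cells were also split on Pthlh. In the 74 cells with a Pthlh UMI, Ndnf was at 127 CPM against 60.04 in the 33 without, a 2.11-fold difference (1.55 to 2.92), Epha7 at 90.1 against 46.8 and Tbx3 at 69.4 against 34.8. Epha7 and Tbx3 were higher with Sostdc1 as well, by 1.67-fold (1.26 to 2.20) and 1.43-fold (1.04 to 1.98), and Igfbp5 was higher with Pthlh, by 1.53-fold (1.23 to 1.92). Lmo1 did not differ beyond counting error by the Pthlh split, at 144 CPM against 142, but was higher with Sostdc1, at 176 against 126. Single cells spread widely. Lmo1 had a median of 122 CPM per cell with quartiles of 50.9 and 223, against a median of 43.2 with quartiles of 0 and 93.7 in the other mammary cells.

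The same gate was applied to the other stages. In the P0 library it took 2 of 212 non-cycling mammary cells (0.943%, 0.114 to 3.37%). The E14.5 library gave 19 of 22 (86.4%, 65.1 to 97.1%) and the E13.5 library 27 of 43 (62.8%, 46.7 to 77.02%). Whether the E13.5 cells that failed the gate were mammary or skin cells was not tested. Cells at P0 were shallower, with a median of 9832 UMIs, and the gate is in absolute UMIs. The values that follow are those of the cells that passed the gate, whose median depth was 17328 UMIs at E13.5, 27646 in the next library and 23404 at E15.5. The gate genes Cxcl14, Pthlh and Sostdc1 chose the cells and are not compared. From the earliest stage to E15.5, Tbx3 was at 184, 262 and 59.0 CPM, and Ndnf at 171, 338 and 107. Both were lower in the E15.5 cells than in those of either earlier stage, with intervals of counting error that do not overlap. Stage and library cannot be told apart in these values. Msx1, a homeobox factor of the early bud, was at 141, 26.6 and 5.79 CPM. Ptn went the other way, at 195, 177 and 1249 CPM, and so did Col17a1, at 52.0, 110 and 163. Lmo1 was at 67.1, 26.6 and 143 CPM and Epha7 at 23.8, 135 and 77.1. The 2 cells at P0 held 167 UMIs of Acta2, at 9026 CPM, so they were not comparable with the E15.5 cells.

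At E13.5, where 16 non-cycling mammary cells failed the gate, the direction of the E15.5 differences could be set beside a second library. Of the 27 higher genes, 19 had at least 10 UMIs there, and 16 of these had higher CPM in the gated cells, 11 of them at least 2-fold, while 2 were at least 2-fold lower. Of the 53 lower genes, 44 had as many UMIs, and 33 of these had lower CPM in the gated cells, 21 of them at least 2-fold, while 6 were at least 2-fold higher. Over all 4518 genes with as many UMIs, 56% had higher CPM in the gated cells and 44% lower, 12.5% were at least 2-fold higher and 6.2% at least 2-fold lower. Tbx3 was at 184 CPM in the gated cells against 14.6 in the others at E13.5, Lmo1 at 67.1 against 7.31, and Anxa1 at 158 against 1180. Igfbp5 stood the other way, at 139 CPM against 245. No Ly6d-high cell was found among the 43 cells. The 16 other cells at E13.5 were thus all Ly6d-low, whereas the 257 at E15.5 included 25 Ly6d-high cells. Ndnf had 1 UMI in the 16 cells, at 3.65 CPM against 171 in the gated cells, and Krt17 was at 2156 CPM against 615. The paper removed skin cells by cluster before it reported a single mammary population at E13.5, a step not taken here. Whether the 16 were mammary or skin cells was not tested, so these counts may not be within mammary epithelium.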

How the data were processed

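The authors deposited, per library, a table of raw counts (UMIs per gene and cell barcode), made from 10x 3' v3.1 libraries with Cell Ranger on mm10. The submitters' notes give version 6.0.0, and the table headers give 3.1.0 for E15.5 and 6.0.0 for the other 3 stages, so stage comparisons may also differ by version, which was not tested. Every deposited barcode held at least 500 UMIs, with 2642 barcodes at E15.5. Cells were gated as described in the report with Python 3.11.15, numpy 2.4.6, scipy 1.17.1 and scanpy 1.11.5 (Scrublet). UMIs were summed per class and given as CPM with exact Poisson intervals. Ratios have exact conditional binomial intervals. The script was tested on simulated counts.

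Genes used by the gates were left out, and a gene was measured where the mean of its CPM values in the 2 classes was at least 25. Motifs were searched in RefSeq promoter windows. The text names the 15 highest and 15 lowest genes past 2-fold, the markers Lmo1, Ndnf and Epha7, and members of 29 gene lists, those past 2-fold first. A class at 0 is set to 3 counts. Ensembl identifiers joined the genes of the 4 stages, and positions are from GENCODE M21. The members and lists were chosen with earlier results of these data known. With 1 library per stage, no test was possible.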

Additional observations from a re-analysis of the deposited data

Results flagged for a closer look

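Pik3r1 differed in direction between stages. It was 2-fold higher in the gated than in the other cells at E15.5, at 46.3 CPM against 20.1, but at E13.5 it was at 73.6 CPM in the gated cells and 300 CPM in the 16 others, a log2 ratio of -2.02. The difference was not tested, since each stage is 1 library. Whether the 16 cells were mammary or skin cells was not tested either.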

How the results depend on the processing

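No paired analysis was possible because each stage is 1 library. The share of Cxcl14-high cells was 29.4%, and moved to 40.9% with a gate sum of at least 5 and to 19.5% with at least 12. It lay between 24.9 and 33.03% under the other 11 alternatives. The 80 genes past 2-fold against the other mammary cells became 52 with the gates read on thinned cells, 158 with cells thinned after gating, 206 at a mean of 10 CPM (109 higher, 97 lower) and 48 at 50 CPM. The other 15 counts lay between 70 and 117. Thinning after gating also took the 691 genes against Ly6d-high cells to 1137 and the 58 against the remaining Ly6d-low cells to 136. Without mitochondrial, ribosomal protein and heat shock UMIs, 51 genes were higher and 66 lower. For 31 named genes, 461 of 527 log2 ratios under 17 alternatives stayed inside the 95% interval of the reported ratio, 64 lay outside it with the same sign, and 2 changed sign, both for BC100530 (-0.62 with gates on thinned cells, -0.032 with cycling cells kept). The alternative without the richest cell of each gene was chosen after the data were seen. The causes were not tested.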

Other observations

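Further lists showed small differences between the Cxcl14-high and the other non-cycling mammary cells at E15.5. Of 12 measured Sox and progenitor factors, 10 had a ratio above 1 and only Bcl11b reached 2-fold. Hmga2, an architectural chromatin protein of embryonic cells, was at 46.3 CPM against 26.05, and the nuclear factor gene Nfib at 815 against 522. Of 10 cadherin, catenin, connexin and tight junction genes, 8 were below 1. Cldn1 was at 15.9 CPM against 53.4, past 2-fold, and Cdh1, which encodes E-cadherin, at 331 against 494. Cdh3, which encodes P-cadherin, was on the other side, at 65.1 CPM against 47.8. Of 15 IGF axis and imprinted genes, H19, a maternally expressed RNA, was lower, at 175 CPM against 407, and only Igfbp5 was at least 2-fold higher. Among 9 semaphorin and netrin guidance genes none reached 2-fold, with Sema3d at 97.3 CPM against 62.8 and Sema3e at 28.6 against 48.9. All 4 measured MHC genes were below 1 but within 2-fold. Hormone receptor genes were below the level filter, with Esr1, the oestrogen receptor alpha gene, at 20.6 CPM against 16.3. Genes of endothelial, blood, glial, pigment, muscle and Merkel cells summed to 12.3 CPM against 7.51, and 10 of 21 were at 0 in the Cxcl14-high cells.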
